A study of Homo sapiens with 33 samples.

Results

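Karpas422 cells given the PRC2 inhibitor EED226 for 48 h were compared with cells given the solvent DMSO for the same time. Karpas422 is an established human diffuse large B cell lymphoma line, described by the series title as EZH2 mutant. The comparison used 6 of the 33 arrays of the series: 3 titled EED226 48 h, at a dose of 5 µM, and 3 titled DMSO 48 h, which the design text calls day 2. Members were taken from the titles, and all 19775 measured genes were compared. The study followed the same line over several days, with vehicle and inhibitor arrays at each time after 0 h. Its design text speaks of an EZH2 inhibitor and its treatment text also names EI1, while every treated title names EED226. Groups here follow the titles. Both groups share the line and the serum-containing medium, and the labels call the replicates biological triplicates.

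Polycomb repressive complex 2 (PRC2) adds methyl groups to lysine 27 of histone H3 through its catalytic subunit EZH2 or EZH1, together with the subunits EED and SUZ12. The mark is bound by PRC1 complexes and accompanies silencing of developmental and lineage genes, and EED itself binds the trimethylated mark and stimulates the enzyme. EED226 occupies that pocket of EED. Germinal centre B cells use EZH2 to hold back cell cycle inhibitors and plasma cell genes, and some germinal centre lymphomas carry activating EZH2 mutations.

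Values are log2 expression values from Affymetrix arrays, made by the authors with RMA, with 1 probe set per gene. A difference is EED226 minus DMSO on that scale, given with its limma standard error (SE) and 3 arrays a group, so that 1 unit is a 2-fold change. A gene passed where its limma adjusted p was under 0.05 over all 19775 genes, and only such genes are called higher or lower. Genes of the lists named outside the naming rule (the methods give it) were chosen after their values were seen. Arrays of a group correlated at 0.996 to 0.997 across probe sets, and arrays of different groups at 0.993 to 0.994. The 75th percentile of the array values was 6.52 to 6.55 in DMSO and 6.58 to 6.62 with EED226. GAPDH control probe sets differed more between the 3' and 5' end with EED226 (0.28 to 0.37) than in DMSO (0.24 to 0.26), and the part of this in the results was not tested. The ACTB pair gave 3.04 to 3.25 in DMSO and 3.02 to 3.49 with EED226, and 1429 genes were higher and 582 lower with that value as a covariate. Levels under 4.06, the lowest median of any array, are called dim. Of 7 measured B cell markers 0 were dim in DMSO, and mean DMSO levels were 12.4 for MS4A1 (CD20), 11.5 for PAX5 and 10.4 for CD79B. Of 7 measured myeloid markers 6 were dim in both groups, as were 4 of 6 epithelial ones and 5 of 12 T and NK cell ones. CD3G and CD3D, which encode CD3 chains of the T cell receptor complex, were not dim in this B cell line. They were at 10.3 and 8.92 in DMSO, and CD3E was at 4.64. The fibroblast matrix gene DCN was bright, at 12.7.

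At 48 h, 1337 genes were higher with EED226, which is 6.76% of those tested, and 529 were lower, or 2.68%. The rises were larger: 257 genes (1.30%) were at least 2-fold higher, while only LTA, TNF and EGR1 were at least 2-fold lower. Rises had a median of 0.61 and reached 3.01, against a median of −0.31 for the falls. The 3 EED226 values did not overlap the 3 DMSO values in 1849 of the 1866 genes that passed, and in 5963 of all 19775 genes (30.2%), so that a lack of overlap alone says little. In bulk RNA, a change in the share of cells that express a gene cannot be told apart from a change in RNA per cell. The balance of rises and falls depended on the scaling. Rises were 71.7% of the genes that passed, 61.1% (1400 higher, 892 lower) after renewed quantile normalization, and 47.6% (1073 higher, 1180 lower) with array medians over genes centred. The median difference of all genes was −0.03. Without EED226 replicate 2, 1232 genes passed. Falls were fewest without that array (231), and numbered 274, 296, 302 and 278 without DMSO replicates 1, 2 and 3 and EED226 replicate 3. Falls of at least 2-fold numbered 5 without DMSO replicate 1.

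**Figure D1:**
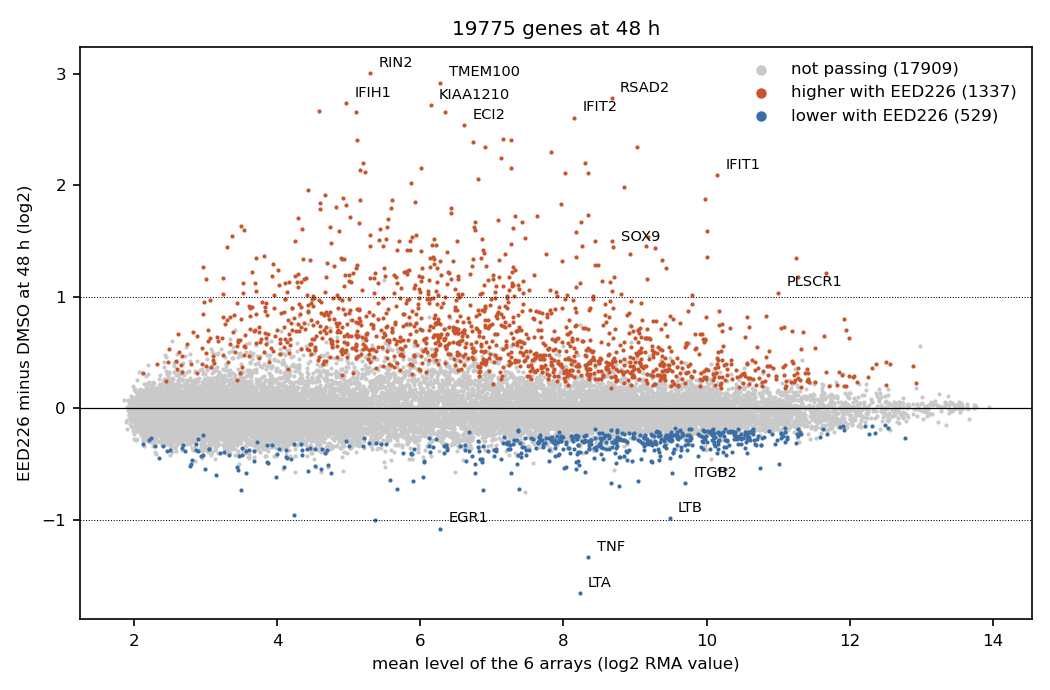
Difference between EED226 and DMSO at 48 h (log2) against the mean level of the 6 arrays (log2 RMA value), 1 point per gene, with genes that passed the limma test in colour and dotted lines at a 2-fold change. The 257 genes above the upper line contrast with the 3 below the lower line.

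The targeted complex itself changed little in its RNA. EZH2, the main methyltransferase, was at 10.20, 10.27 and 10.20 in DMSO and 10.09, 10.24 and 10.18 with EED226, values that overlap. EED, the subunit that the compound binds, differed by −0.09 ± 0.05 (adjusted p = 0.37), EZH1 by 0.16 ± 0.08 (adjusted p = 0.25) and SUZ12 by 0.01 ± 0.07 (adjusted p = 0.96). Since EED226 acts on the protein, these levels do not check the labels. Among 14 PRC2 genes 2 were higher (14.3%, against 6.76% of all genes) and none lower. JARID2, an accessory subunit that helps to recruit PRC2, was at 6.27, 6.28 and 6.24 in DMSO and 7.03, 6.81 and 6.90 with EED226, a rise of 0.65 ± 0.10 (adjusted p = 3.7e-05), with 1 of its 2 other probe sets at −0.03. EPOP, another accessory subunit, rose by 0.29 ± 0.09 (adjusted p = 0.028), a call that was lost without each of 5 single arrays (adjusted p of 0.064 to 0.11), though not without EED226 replicate 3.

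Of 18 measured PRC1 genes 4 were higher (22.2%, against 6.76% of all genes) and none lower, with a list median of 0.08. Without EED226 replicate 1 there was 1 lower gene. PCGF5, a subunit of variant PRC1 complexes, rose by 0.84 ± 0.14, and CBX7, which reads methylated lysine 27, by 0.74 ± 0.17. RYBP, which marks variant complexes, was at 8.38, 8.34 and 8.41 in DMSO and 9.01, 9.0 and 8.99 with EED226, a rise of 0.63 ± 0.08 (adjusted p = 1.4e-06). PHC1, of the canonical complex, rose by 0.51 ± 0.07. Groups did not overlap for RYBP or PHC1. Among 10 demethylases and COMPASS genes only ASXL1, a partner of the H2A deubiquitinase BAP1, passed, at −0.29 ± 0.09 (adjusted p = 0.040). The list thus had 10% lower, against 2.68% of all genes, and none higher. The ASXL1 call was lost without any 1 of the 6 arrays (adjusted p of 0.075 to 0.12). Its 5 other probe sets gave −0.13 to 0.02, and the mean of all its probe sets −0.09 (adjusted p = 0.56).

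Classical Polycomb targets moved in small numbers. Of 28 measured HOX genes, which set position along the body axis, 5 were higher and 1 lower, with a median of 0.03 that turned negative under some alternatives. HOXB3 was at 4.98, 5.17 and 5.05 in DMSO and 6.05, 6.51 and 6.17 with EED226, a rise of 1.18 ± 0.15 (adjusted p = 1.9e-06), although its other probe set gave −0.08 and the mean of both 0.55. HOXC6 rose by 0.89 ± 0.16, HOXB4 by 0.49 ± 0.07, HOXC4 by 0.45 ± 0.07 and HOXB7 by 0.41 ± 0.09. The dim HOXD10 fell by 0.37 ± 0.10, and that call was lost without DMSO replicate 3. In all, 16 HOX genes were dim in both groups, where a change could be missed. Of 118 other developmental transcription factors 5 were higher and none lower, and 78 were dim in both groups. Without EED226 replicate 2 only 3 were higher, and without DMSO replicate 2, DMSO replicate 3 or EED226 replicate 1 there were 2, 1 and 1 lower. The shares of higher genes, 17.9% of HOX genes and 4.24% of the other factors, stood beside 6.76% of all genes.

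The developmental factors that rose had distinct starting levels. MEIS1, a HOX cofactor, was at 5.16, 5.11 and 5.22 in DMSO and 6.74, 6.62 and 6.79 with EED226, a rise of 1.56 ± 0.16 (adjusted p = 8.0e-08). SOX9, a chondrocyte and progenitor factor, was already at 7.88, 7.99 and 8.04 in DMSO and reached 9.37, 9.48 and 9.39, a rise of 1.45 ± 0.09 (adjusted p = 8.2e-12). For both genes every EED226 value lay above every DMSO value. ZIC2, a neural zinc finger factor, rose by 1.03 ± 0.21 from a dim level. The homeobox genes DLX2 and MSX1 rose by 0.71 ± 0.16 and 0.38 ± 0.11.

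Of the lists, that of interferon effectors held the most rises of at least 2-fold (30), followed by nucleic acid sensors (5), while interferon signalling held 1. Type I interferons signal through IFNAR receptors and JAK kinases to STAT and IRF factors, which switch on antiviral effector genes, while sensors such as RIG-I and MDA5 detect foreign or misplaced nucleic acid and start interferon production. Of 121 measured sensors, signalling genes and effectors, 77 were higher with EED226 and none lower, and 36 were at least 2-fold higher. These counts compare with 6.76% and 1.30% of all genes, and they describe lists assembled with earlier results of these data known.

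Few calls were made among the ligands and receptors. Among 24 measured interferons and receptors, IFNB1 was the only gene to pass (4.17% higher, against 6.76% of all genes), and none was lower. Of the 24, 18 were dim in both groups, where a change could be missed. IFNB1, which encodes interferon beta, was at 3.30, 3.07 and 3.06 in DMSO and 3.88, 3.44 and 3.94 with EED226, a dim difference of 0.61 ± 0.20 (adjusted p = 0.045). The adjusted p was 0.057 to 0.18 without each of 5 single arrays, EED226 replicate 2 excepted. The receptor chain IFNAR1 differed by 0.01 ± 0.10 and IL10RB, shared with the interferon lambda receptor, by 0.15 ± 0.07, neither of which passed. IFNG gave 0.21 ± 0.11 at a dim level.

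Among 22 nucleic acid sensors 10 were higher, with a list median of 0.37 against −0.03 over all genes. IFIH1, which encodes the double-stranded RNA sensor MDA5, was dim in DMSO at 3.78, 3.52 and 3.48 and stood at 6.09, 6.53 and 6.36 with EED226. This was a 6.66-fold rise (2.73 ± 0.17, adjusted p = 8.2e-12), with other probe sets at 0.19 and 0.68 and a mean over probe sets of 1.20. AIM2, a cytosolic DNA sensor that forms an inflammasome, was at 3.73, 3.90 and 3.67 and rose to 6.58, 6.81 and 5.89 (2.66 ± 0.21, adjusted p = 7.7e-10). RIGI, the sensor of 5' triphosphate RNA, was bright before and moved from 8.82, 8.76 and 8.84 to 9.91, 10.07 and 10.20 (1.26 ± 0.09, adjusted p = 2.1e-10). None of these groups overlapped, which the naming rule requires for IFIH1 and AIM2. IFI16, another DNA sensor, rose by 1.59 ± 0.14 and the endosomal RNA receptor TLR7 by 1.5 ± 0.26. The DNA arm was not uniformly higher: CGAS gave −0.28 ± 0.17 and its adaptor STING1 −0.05 ± 0.12, and neither passed. MAVS, the adaptor of RIG-I and MDA5, gave −0.01 ± 0.07, and the endosomal receptor TLR3 −0.10 ± 0.16.

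Of 19 signalling genes 9 were higher and none lower. USP18, which damps the receptor and removes ISG15 from proteins, was at 7.05, 6.91 and 6.91 in DMSO and 8.91, 9.11 and 9.18 with EED226, a 4.31-fold rise (2.11 ± 0.16, adjusted p = 4.7e-10). JAK1, a kinase of the receptor complex, moved from 8.27, 8.37 and 8.07 to 8.98, 9.19 and 8.98 (0.81 ± 0.11, adjusted p = 6.7e-06), with 1 of its 4 other probe sets opposite and a mean over probe sets of 0.39. The groups were separate for both genes, which the naming rule requires for USP18. The transcription factors IRF7, IRF1, IRF9, IRF2 and IRF8 rose by 0.90, 0.82, 0.65, 0.51 and 0.21, and the feedback inhibitor SOCS1 by 0.74 ± 0.18.

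Effector genes rose most widely. Of 80 measured, 58 were higher, 30 of them at least 2-fold, with a list median of 0.73. Dim genes made up most of the remainder: 15 were dim in both groups, of which 3 passed, against 55 of the other 65. The count lay between 54 and 59 over all alternatives. RSAD2, which encodes the antiviral enzyme viperin, was at 7.25, 7.2 and 7.39 in DMSO and 9.93, 9.94 and 10.32 with EED226. It was 6.87-fold higher (2.78 ± 0.24, adjusted p = 3.6e-09). IFIT2, which binds viral RNA, moved from 7.0, 6.54 and 6.99 to 9.13, 9.54 and 9.68 (2.61 ± 0.18, adjusted p = 1.1e-10), or by 1.68 as the mean of its probe sets. IFIT1, which recognises RNA caps that lack 2'-O methylation, was among the brightest, at 9.22, 8.95 and 9.13 and then 11.17, 11.17 and 11.24 (2.09 ± 0.14, adjusted p = 2.3e-11). In these 3 genes the lowest EED226 value was well above the highest DMSO value, and the naming rule requires separate groups.

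Other effectors rose as well. OASL, a relative of the oligoadenylate synthetases that enhances RIG-I signalling, was 5.29-fold higher (2.40 ± 0.18). RTP4, a chaperone of membrane receptors, was at 5.81, 5.39 and 5.42 in DMSO and 8.0, 7.86 and 7.93 with EED226 (2.39 ± 0.23). XAF1, a pro-apoptotic antagonist of XIAP, was 5.08-fold higher (2.35 ± 0.20). IFI27, a mitochondrial interferon-induced protein, was more variable, at 7.38, 6.91 and 7.31 against 9.22, 9.09 and 9.88 (2.20 ± 0.29, adjusted p = 3.7e-06). IFI44L rose by 2.11 ± 0.17 and MX2, a dynamin-like restriction factor, by 1.99 ± 0.14. SAMD9L, an antiviral growth restraint factor, moved from 8.58, 8.39 and 8.73 to 9.94, 9.94 and 10.11 (1.44 ± 0.09). In RNF213, an E3 ligase, the size depended on the probe set: the brightest gave 1.17 ± 0.18, 3 of 7 others were opposite, and the brightest outside EED226 arrays gave 0.09 (adjusted p = 0.77).

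**Figure D2:**
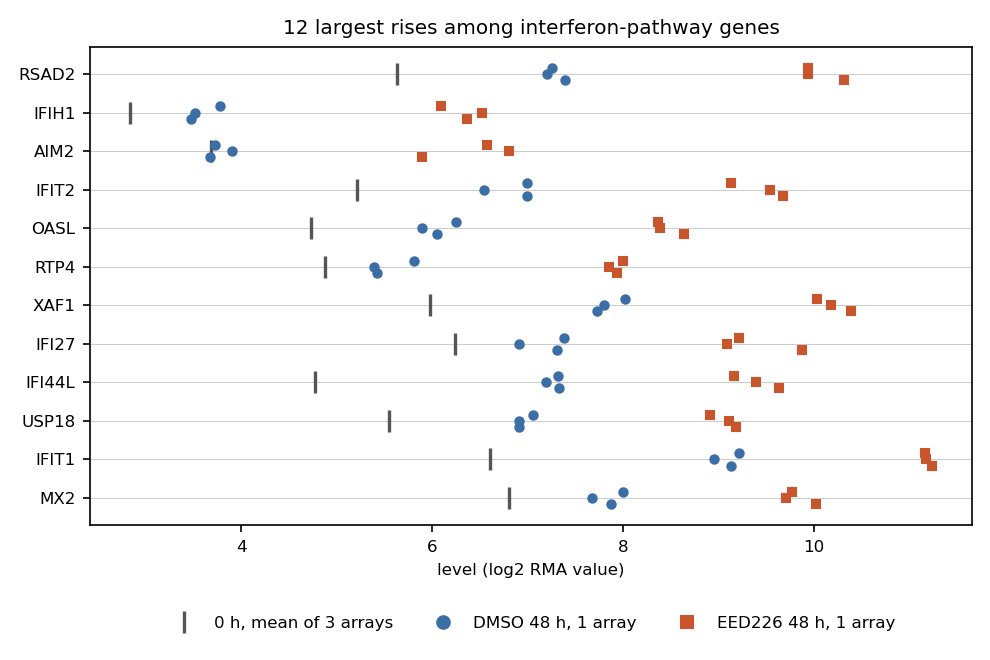
Level (log2 RMA value) of the 12 largest rises among interferon-pathway genes, with 1 symbol per array at 48 h and a grey bar for the mean of the 3 arrays at 0 h. All EED226 squares lie to the right of all DMSO circles, as the naming rule requires. In 11 of the 12 genes, AIM2 being the exception, the DMSO circles lie to the right of the 0 h bar.

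Vehicle arrays at 48 h themselves differed from 0 h in many of these genes, and the DMSO 48 h arrays are shared by both comparisons. Over all genes 141 were higher in DMSO at 48 h than at 0 h, or 0.713%, and 35 were lower. Among effectors 38 of 80 were higher in DMSO than at 0 h, among sensors 7 of 22 and among signalling genes 3 of 19. IFIT1 differed by 2.49 between DMSO at 48 h and 0 h beside 2.09 between EED226 and DMSO, IFI44L by 2.51 beside 2.11, and XAF1 by 1.88 beside 2.35. RSAD2 had 1.65 beside 2.78. AIM2 gave 0.08 against 0 h, which did not pass, beside 2.66. How the cells of the 0 h arrays were handled is not stated in the labels, and the part of time in culture in the EED226 difference was not tested.

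Promoter letters differed between the interferon genes and the other strong rises. RefSeq promoters (GRCh38.p14, 250 bases before to 50 after each start) matched 15382 of the 19775 genes. The interferon response element was searched as GAAANNGAAA on either strand. It was in 20 of 30 promoters (66.7%) of interferon-pathway genes at least 2-fold higher, in 8 of 181 (4.42%) of the other genes at least 2-fold higher, in 1.61% of the lower genes and in 2.95% of all. Interferon-pathway genes that did not pass held it in 8 of 26 (30.8%), so that the list itself is rich in it. The gamma-activated site, searched as TTCNNNGAA on either strand, was in 26.7%, 4.42%, 6.45% and 6.95% of the same 4 groups, and a match of one motif may overlap one of another. A match describes letters in this window and shows neither binding nor a cause. The 120 bases before the start are shown for 4 interferon genes and for MS4A12, a rise outside the lists that also holds the element, with the element in capitals, read along the strand of the gene.
IFIT1 (chr10:89392503-89392622, + strand): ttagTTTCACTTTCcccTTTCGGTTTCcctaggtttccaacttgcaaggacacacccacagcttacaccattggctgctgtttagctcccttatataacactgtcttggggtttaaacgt
IFI27 (chr14:94110616-94110735, + strand): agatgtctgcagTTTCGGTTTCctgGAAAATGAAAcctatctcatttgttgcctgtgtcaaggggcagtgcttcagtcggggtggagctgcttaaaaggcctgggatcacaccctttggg
RTP4 (chr3:187368265-187368384, + strand): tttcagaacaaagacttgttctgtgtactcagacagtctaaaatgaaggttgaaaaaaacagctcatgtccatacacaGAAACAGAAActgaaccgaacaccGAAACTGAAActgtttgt
IFIH1 (chr2:162318685-162318804, − strand): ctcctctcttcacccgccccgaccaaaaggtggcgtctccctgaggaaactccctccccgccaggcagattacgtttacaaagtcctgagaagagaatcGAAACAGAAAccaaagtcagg
MS4A12 (chr11:60492658-60492777, + strand): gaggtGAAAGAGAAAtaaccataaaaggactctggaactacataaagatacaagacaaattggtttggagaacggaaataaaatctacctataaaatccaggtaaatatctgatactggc
IFIT1, IFI27 and RTP4 each carry 2 copies in this stretch. The first copy begins 116 bases before the start in IFIT1, 108 in IFI27 and 42 in RTP4, and the copy of IFIH1 nearest its start begins 21 bases before it.

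RSAD2, the largest interferon-pathway rise, had no match to that spacing. After its promoter was read, a shorter form, AANNGAAA on either strand, was searched, which every GAAANNGAAA also contains. It was in 27 of the 30 strongest interferon promoters (90%), in 20.4% of the other genes at least 2-fold higher, in 11.8% of the lower genes and in 18.7% of all. The RSAD2 stretch is shown because it holds 3 copies, in capitals.
RSAD2 (chr2:6865765-6865884, + strand): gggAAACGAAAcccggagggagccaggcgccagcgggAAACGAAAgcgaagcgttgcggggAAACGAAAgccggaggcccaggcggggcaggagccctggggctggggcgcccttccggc

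Antigen presentation genes rose with smaller steps. Of 19 MHC class I genes, which load peptides for CD8 T cells, 13 were higher (68.4%, against 6.76% of all genes) and none lower. Their median was 0.41. HLA-C, a classical class I heavy chain, was at 11.44, 11.40 and 11.09 in DMSO and 12.07, 11.97 and 11.84 with EED226 (0.65 ± 0.13, adjusted p = 0.00097). TAP1, a subunit of the peptide transporter, moved from 10.57, 10.44 and 10.30 to between 10.91 and 11.04 (0.55 ± 0.09, adjusted p = 0.00011). Groups did not overlap in either gene. HLA-E, HLA-B and HLA-F rose by 0.73, 0.63 and 0.71, and the immunoproteasome subunits PSMB9 and PSMB8 by 0.32 and 0.26. Near-identical HLA genes may share probes. The count fell to 8 without DMSO replicate 3 or without EED226 replicate 1.

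MHC class II genes, which present to CD4 T cells, gave 6 of 18 higher (33.3%, against 6.76% of all genes) and none lower. Their median was 0.17. HLA-DRA, the alpha chain of HLA-DR, was at 11.69, 11.72 and 11.82 in DMSO and 12.05, 11.94 and 12.12 with EED226, without overlap (0.29 ± 0.06, adjusted p = 0.00098). HLA-DOA, a modulator of peptide loading, rose by 0.55 ± 0.10, and by 0.20 (adjusted p = 0.099) as the mean of its probe sets. CD74, the invariant chain, rose by 0.24 ± 0.06 and RFX5, a factor of class II promoters, by 0.28 ± 0.06. The count was 3 with only the compared arrays fitted and 2 with the mean of each gene's probe sets.

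The TNF superfamily held both the strongest falls and a strong rise. Of 34 ligands and receptors 5 were higher (14.7%, against 6.76% of all genes) and 4 lower (11.8%, against 2.68%), and the median was −0.04. LTA, which encodes the secreted lymphotoxin alpha, was at 9.01, 9.12 and 9.02 in DMSO and 7.35, 7.43 and 7.41 with EED226, a 3.15-fold fall (−1.66 ± 0.18, adjusted p = 1.6e-07). TNF, the inflammatory cytokine, was at 8.95, 9.07 and 9.02 and fell to 7.54, 7.67 and 7.84 (−1.33 ± 0.15, adjusted p = 5.5e-07). LTB, which anchors lymphotoxin at the membrane, moved from 9.80, 9.87 and 10.26 to 8.93, 8.98 and 9.07 (−0.98 ± 0.21, adjusted p = 0.0026), with its other probe set at −0.01 and the mean of both at −0.50. All EED226 values of these 3 genes lay below all DMSO values, as the naming rule requires. LTA, TNF and LTB lie next to each other on chromosome 6, in the MHC class III region. TNFRSF10A, a TRAIL receptor, fell by 0.46 ± 0.09.

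TNFSF8, the CD30 ligand, was at 4.84, 4.64 and 4.6 in DMSO and 6.63, 6.47 and 6.35 with EED226 (1.79 ± 0.18, adjusted p = 4.5e-08). Its other probe sets gave 0.16 and 0.48, and with the brightest probe set outside EED226 arrays the call was lost (adjusted p = 0.64). TNFRSF17 (BCMA), a survival receptor of plasma cells, rose by 0.63 ± 0.15. CD40, TNFSF9 and TNFSF15 rose by 0.38, 0.41 and 0.50. The number of higher members was 2 without DMSO replicate 3, and 3 without DMSO replicate 1 or without any 1 of the EED226 replicates, while the number of lower members was 4 under every alternative run.

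Inflammatory and growth factor signalling lists each held 1 to 3 higher genes. Among 23 NF-kB subunits and targets 3 were higher (13.0%, against 6.76% of all genes). NFKBIZ, an atypical inhibitor protein that also activates transcription, rose by 1.16 ± 0.18 from a dim level (adjusted p = 4.5e-05), and by 0.34 (adjusted p = 0.37) with the other probe set. NFKB1 rose by 0.54 ± 0.16 (adjusted p = 0.031), with adjusted p between 0.050 and 0.12 without single arrays, and the dendritic and B cell marker CD83 by 0.53 ± 0.16. The count was 1 without DMSO replicate 1 and without EED226 replicate 1 or 2.

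Of 24 AP-1 and EGR genes, 1 was higher (4.17%) and 2 lower (8.33%, against 2.68% of all genes). EGR1, an immediate early zinc finger factor, was at 7.07, 6.72 and 6.64 in DMSO and 5.99, 5.99 and 5.22 with EED226. The groups did not overlap, yet the fall of −1.08 ± 0.35 just passed (adjusted p = 0.048), and no fit without 1 of the 6 arrays kept the call (adjusted p of 0.057 to 0.25). IER2, another immediate early gene, fell by 0.41 ± 0.13 and passed only without EED226 replicate 3 among those fits (adjusted p of the other 5, 0.054 to 0.19). IER5, an early stress gene, rose by 0.44 ± 0.10, and without EED226 replicate 3 2 genes of this list were higher. In 14 MAPK feedback genes 3 were higher (21.4%). SPRED2, an inhibitor of RAS signalling, rose by 0.88 ± 0.17 with both other probe sets opposite. The mean of all its probe sets gave 0.18 (adjusted p = 0.10). The phosphatase DUSP10, dim in both groups, rose by 0.69 ± 0.17, with its other probe set at 0.04 and the mean of both at 0.37 (adjusted p = 0.090). The phosphatase DUSP4 rose by 0.44 ± 0.12. Without EED226 replicate 1 that count was 1.

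B cell state genes changed in part. Of 28 germinal centre genes 8 were higher (28.6%, against 6.76% of all genes) and 1 lower (3.57%, against 2.68%), with a median of 0.08. FOXO1, a factor of the germinal centre dark zone, was at 8.10, 8.19 and 8.25 in DMSO and 8.82, 8.98 and 8.98 with EED226 (0.75 ± 0.08, adjusted p = 2.5e-07), although 1 of its other probe sets gave −0.03. S1PR2, the receptor that confines B cells to the germinal centre, moved the other way, from 7.70, 7.68 and 7.83 to 6.98, 6.93 and 7.13 (−0.72 ± 0.10, adjusted p = 1.2e-05). Both were free of overlap, which the naming rule requires for S1PR2. The other probe set of S1PR2 gave −0.05, and means over probe sets were −0.39 for S1PR2 and 0.47 for FOXO1. BACH2, a repressor of plasma cell differentiation, rose by 1.19 ± 0.18 and TCL1A, an AKT coactivator, by 1.11 ± 0.23. BCL6, the master repressor of the germinal centre, was bright and gave 0.09 ± 0.06, which did not pass.

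Of 19 plasma cell genes 5 were higher (26.3%, against 6.76% of all genes) and none lower. CD38, an ectoenzyme of plasma cells, was at 5.05, 5.16 and 4.37 in DMSO and 6.13, 6.29 and 5.93 with EED226, again without overlap (1.26 ± 0.20, adjusted p = 7.1e-05). JCHAIN, which joins secreted antibody units, rose by 1.33 ± 0.27, ELL2, an elongation factor of antibody secretion, by 1.05 ± 0.18, and the stress sensor ERN1 by 0.88 ± 0.17. For ELL2 2 of 3 other probe sets were opposite, and the mean of all its probe sets gave 0.25. TNFRSF17 was the fifth. The defining regulators PRDM1 and IRF4 gave 0.10 ± 0.11 and −0.11 ± 0.13 and did not pass. In the B cell receptor pathway 2 of 22 genes were higher (9.09%) and 1 lower (4.55%), shares close to the 6.76% and 2.68% of all genes: the kinase PRKCB rose by 0.82 ± 0.16 (0.35 as the mean of its probe sets), the paracaspase MALT1 by 0.40 ± 0.08, and the phosphatase PTPN6 fell by 0.67 ± 0.13. Without EED226 replicate 3, 2 genes of that pathway were lower. MS4A1 rose by 0.40 ± 0.10, though not without DMSO replicate 3 (0.31, adjusted p = 0.087).

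Cell cycle lists divided between inhibitors and S phase. Among 14 CDK inhibitors and antiproliferative genes 5 were higher (35.7%, against 6.76% of all genes). GADD45A, a stress-induced growth arrest gene, was at 7.72, 7.77 and 7.6 in DMSO and 9.06, 9.29 and 9.24 with EED226 (1.5 ± 0.11, adjusted p = 3.7e-10). BTG1, an antiproliferative gene often mutated in lymphoma, moved from 8.35, 8.34 and 8.19 to 9.21, 9.40 and 9.32 (1.02 ± 0.10, adjusted p = 2.9e-08). Groups did not overlap in either, and BTG1 gave 0.66 as the mean of its probe sets. CDKN1B (p27) rose by 0.53 ± 0.16, CCNG2 by 0.43 ± 0.10 and TOB1 by 0.28 ± 0.08. CDKN1A and CDKN2A, the former a p53 target and the latter a classical PRC2 target, gave 0.26 ± 0.23 and −0.08 ± 0.09, and neither passed. Without any 1 of the DMSO replicates, or without EED226 replicate 2, the count was 3.

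All 49 S phase genes had a difference below 0, with a median of −0.21 against −0.03 over all genes. As lower passed 10 of them (20.4%, against 2.68% of all genes). POLD1, the catalytic subunit of DNA polymerase delta, was at 8.91, 8.90 and 8.95 in DMSO and 8.51, 8.47 and 8.58 with EED226, without overlap (−0.40 ± 0.08, adjusted p = 0.0014). CDC6 and CDC45, which load and activate the replicative helicase, fell by 0.48 and 0.45. The list median lay between −0.28 and −0.19 under every alternative, while the count ranged from 3 (without EED226 replicate 2) to 27 (array weights), and was 5, 6 and 5 without DMSO replicates 1 and 3 and EED226 replicate 3. Among 50 G2 and M phase genes only CKAP2, a spindle protein, passed, at 0.26 ± 0.08 (adjusted p = 0.037), a call kept without EED226 replicate 1 and lost without each of the other 5 arrays (adjusted p of 0.072 to 0.16). That 1 gene is 2% of the list, against 6.76% higher among all genes, and the list median was −0.04.

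Growth and lipid synthesis lists had medians slightly below 0. Of 27 MYC and ribosome biogenesis genes 5 were lower (18.5%, against 2.68% of all genes) and none higher. Their median was −0.18 and stayed between −0.25 and −0.17. NOP16, a nucleolar protein, was at 11.37, 11.36 and 11.46 and then 11.16, 10.98 and 11.13 (−0.31 ± 0.07, adjusted p = 0.0037), and WDR12, a ribosome assembly factor, fell by 0.26 ± 0.06. Both calls were lost with the mean of probe sets, at −0.13 (adjusted p = 0.25) for NOP16, which has 1 other probe set at 0.22, and −0.20 (adjusted p = 0.42) for WDR12. The WDR12 call was also lost, narrowly, with only the compared arrays fitted (adjusted p = 0.05003). MYC itself gave −0.01 ± 0.06. The count was 3 without DMSO replicate 1 or 3, and 2 without DMSO replicate 2 or EED226 replicate 2 or 3, and over all alternatives it ranged from 2 to 14, highest with array weights. Of 19 cholesterol and fatty acid genes 1 was higher (5.26%) and 2 lower (10.5%), against 6.76% and 2.68% of all genes. SREBF1, the master regulator of lipid synthesis, fell by 0.58 ± 0.13. Its adjusted p was 0.054 without EED226 replicate 2, and the mean of its probe sets gave −0.32. The squalene epoxidase SQLE fell by 0.32 ± 0.09 and STARD4, a sterol carrier, rose by 0.45 ± 0.13. The STARD4 call was lost without DMSO replicate 1 or 2 or EED226 replicate 3 (adjusted p of 0.10 to 0.18). The number of falls in that list was 1 without DMSO replicate 1 or 3 and 0 without EED226 replicate 2, and reached 5 with array weights or with array medians over genes centred.

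Of 27 glycolysis and hypoxia genes 2 were higher (7.41%, against 6.76% of all genes) and 4 lower (14.8%, against 2.68%). The collagen hydroxylase P4HA2 was at 3.59, 3.63 and 3.10 in DMSO and 5.23, 4.94 and 5.29 with EED226 (1.71 ± 0.18, adjusted p = 9.2e-08), but another probe set gave 0.13 (adjusted p = 0.78). Its paralog P4HA1 fell by 0.46 ± 0.07, but its other probe set gave 0.15 and the call was lost with the mean of both (−0.15, adjusted p = 0.17). PFKP fell by 0.37 and the hexokinases HK1 and HK2 by 0.24 and 0.22, and the stress gene NDRG1 rose by 0.72. Only 1 rise was left in that list without DMSO replicate 2 or 3 or EED226 replicate 2 or 3. Of 24 amino acid response genes only VLDLR, a lipoprotein receptor, passed (4.17%), at 0.70 ± 0.20 (adjusted p = 0.027). Its adjusted p was 0.055 to 0.20 without DMSO replicate 1 or 3 or EED226 replicate 1 or 2. Of 15 BCL2 family genes only PMAIP1 (NOXA), a BH3-only sensitiser, passed (6.67%). It moved from 8.0, 7.81 and 7.98 to 9.0, 8.85 and 8.87 (0.98 ± 0.31, adjusted p = 0.042). No fit without 1 of the 6 arrays kept that call (adjusted p of 0.089 to 0.13). Of 14 histone genes H2AC6 passed (7.14%), at 1.13 ± 0.15 from a dim level, and 3 were higher without DMSO replicate 1. The shares of higher genes in these last 3 lists lie near or below the 6.76% of all genes.

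**Figure D3:**
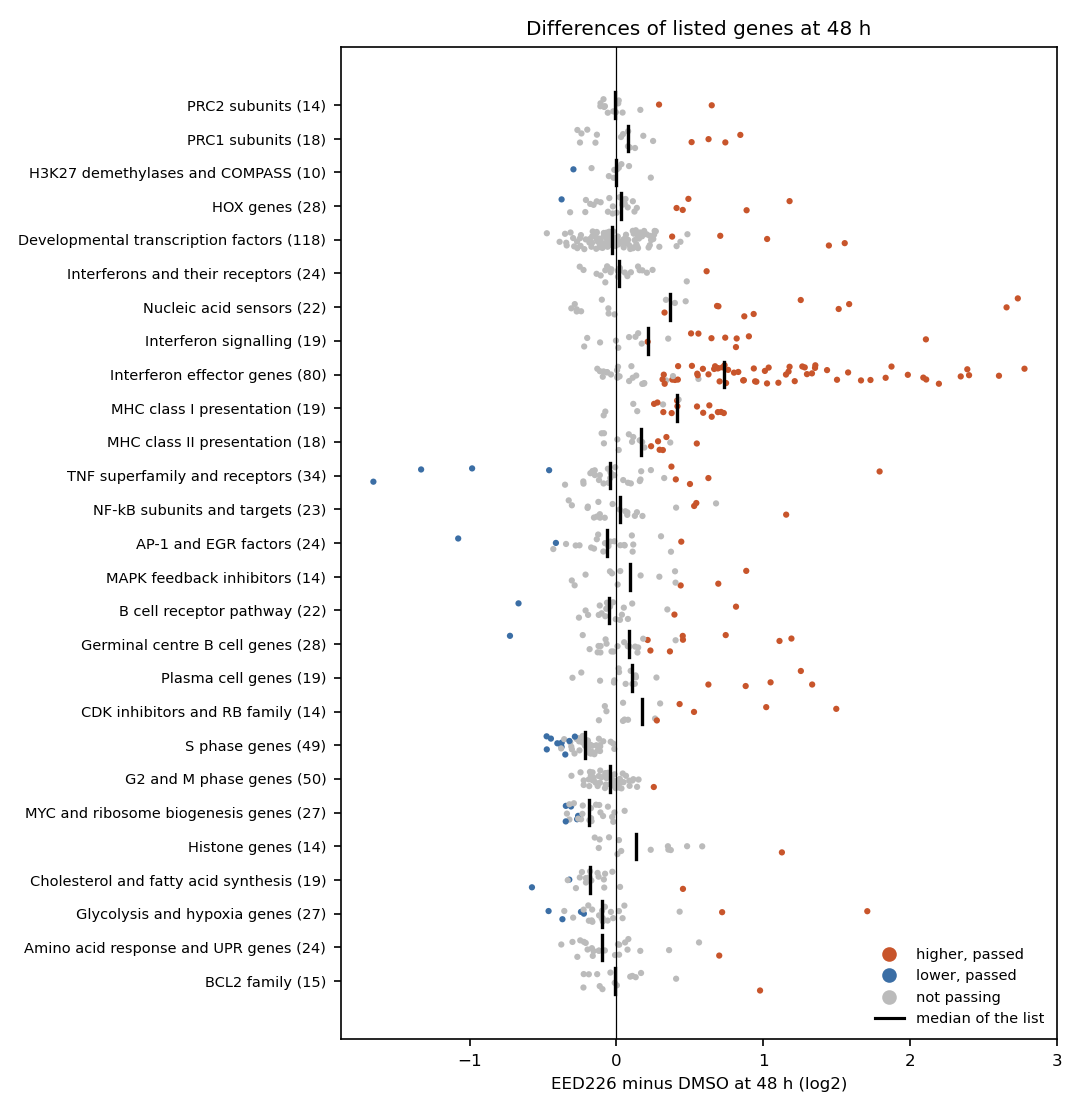
Difference between EED226 and DMSO at 48 h (log2) for the measured genes of 27 lists, 1 point per gene, with the number measured in brackets and a black bar at the list median. The interferon effector list has its median at 0.73, the S phase list lies wholly below 0, and most other medians are near 0.

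Outside the interferon lists 221 genes were at least 2-fold higher, with a median of 1.26, and the largest of these had varied functions. RIN2, a guanine exchange factor for the endosomal GTPase RAB5, was dim in DMSO at 3.76, 3.72 and 3.90 and stood at 6.74, 6.73 and 6.93 with EED226. This was the largest rise of all, 8.03-fold (3.01 ± 0.16, adjusted p = 2.0e-12), although its other probe set gave −0.16. TMEM100, a membrane protein of vascular development, moved from 4.81, 4.87 and 4.78 to 7.64, 7.81 and 7.76 (2.92 ± 0.17, adjusted p = 2.0e-12). KIAA1210 was at 4.55, 5.12 and 4.68 and reached 7.29, 7.58 and 7.64 (2.72 ± 0.18). In each of these genes the groups were separated by more than 2 units.

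HEPACAM2, an immunoglobulin-like adhesion protein, was dim at 3.52, 3.11 and 3.14 and rose to 5.51, 6.14 and 6.11 (2.66 ± 0.16). The metabolic enzymes ABAT, which degrades GABA, and ECI2, which isomerises fatty acyl-CoA, rose by 2.65 ± 0.23 and 2.54 ± 0.14. ID2, an inhibitor of E-protein transcription factors that guide B cell identity, was at 6.12, 6.32 and 5.39 in DMSO and 8.4, 8.77 and 7.90 with EED226 (2.41 ± 0.26, adjusted p = 1.6e-07). In both groups replicate 3 was lowest for ID2. SLC25A43, a mitochondrial carrier, rose by 2.41 ± 0.23, and SRGN, the granule proteoglycan of blood cells, by 2.35 ± 0.21. SERPINE2, a protease inhibitor, was at 6.58, 6.62 and 6.81 and then 8.84, 8.92 and 9.16 (2.30 ± 0.25), with its other probe set at −0.03.

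MCC, a gene mutated in colorectal cancer, was variable in DMSO, at 6.19, 6.38 and 5.45, and reached 8.24, 8.41 and 8.10 with EED226 (2.24 ± 0.38, adjusted p = 0.00018). CTSO, a lysosomal protease, rose by 2.20 ± 0.33, and KLHL13, a ubiquitin ligase adaptor needed in mitosis, by 2.14 ± 0.19. MPEG1, the pore-forming perforin-2 of phagocytes and B cells, moved from 6.26, 6.07 and 6.22 to 8.37, 8.20 and 8.45 (2.15 ± 0.25, adjusted p = 6.2e-07). MS4A12, a relative of CD20 from the same gene family, went from 4.53, 4.10 and 3.86 to 6.26, 6.51 and 6.07 (2.12 ± 0.23). No EED226 value of these genes fell within the DMSO range, as the naming rule requires. PECAM1 (CD31), an adhesion molecule of endothelium and leukocytes, was at 4.6, 5.10 and 5.11 and then 7.08, 7.11 and 7.09 (2.16 ± 0.15). For PECAM1 the direction depended on the probe set: 1 of 4 others was opposite, and the brightest outside EED226 arrays gave −0.30 (adjusted p = 0.14). DCN rose by 0.38 ± 0.06. Of the 8 fibroblast and endothelial markers PECAM1 and DCN were higher (25%, against 6.76% of all genes), and 5 others were dim in both groups. The summed linear value of these 8 genes was 6687 to 6874 in DMSO and 8525 to 9431 with EED226. Most of that sum is DCN, and the list median difference was −0.14, with 2 of the 8 genes above 0. The part of these genes in other results was not tested.

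Of the 257 genes at least 2-fold higher, 53 had a dim mean in DMSO. Other probe sets existed for 177 of them, and for 71 of these at least 1 was opposite in sign. With the mean of each gene's probe sets, 130 genes were at least 2-fold higher. That mean gave 1.42 for RIN2, 1.73 for ABAT, 1.14 for SERPINE2, 1.47 for MCC and 1.04 for PECAM1, each smaller than the brightest probe set by over 1.5 times, and all 5 still passed.

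The largest falls after LTA, TNF, EGR1 and LTB were under or close to 2-fold. NHSL1, related to the actin regulator NHS, was at 5.84, 5.74 and 6.01 in DMSO and 5.12, 4.65 and 4.84 with EED226 (−1.0 ± 0.23, adjusted p = 0.0052). SHISA8, a membrane adaptor, fell by 0.95 ± 0.17. SEMA7A, a membrane-anchored semaphorin of immune cells, moved from 7.10, 7.12 and 7.53 to 6.47, 6.33 and 6.74 (−0.73 ± 0.16, adjusted p = 0.0032). These groups were apart, as the naming rule requires. As means over probe sets the falls were −0.41 for NHSL1 and −0.46 for SEMA7A. PLTP, a phospholipid transfer protein, fell by 0.72 ± 0.15. ITGB2, the common beta chain of the leukocyte integrins, was between 9.99 and 10.11 in DMSO and then at 9.49, 9.27 and 9.33 (−0.67 ± 0.09, adjusted p = 1.4e-05). ITGB2-AS1, its antisense partner, fell by 0.70 ± 0.19, and both cannot be fully told apart where probes overlap. The ITGB2-AS1 call was lost without DMSO replicate 3 (−0.67, adjusted p = 0.0648) and without EED226 replicate 2 (−0.65, adjusted p = 0.080). DCAF4L1, dim in both groups, fell by 0.74 ± 0.23, and passed without DMSO replicate 1 but not without any other single array (adjusted p of 0.077 to 0.15).

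**Figure D4:**
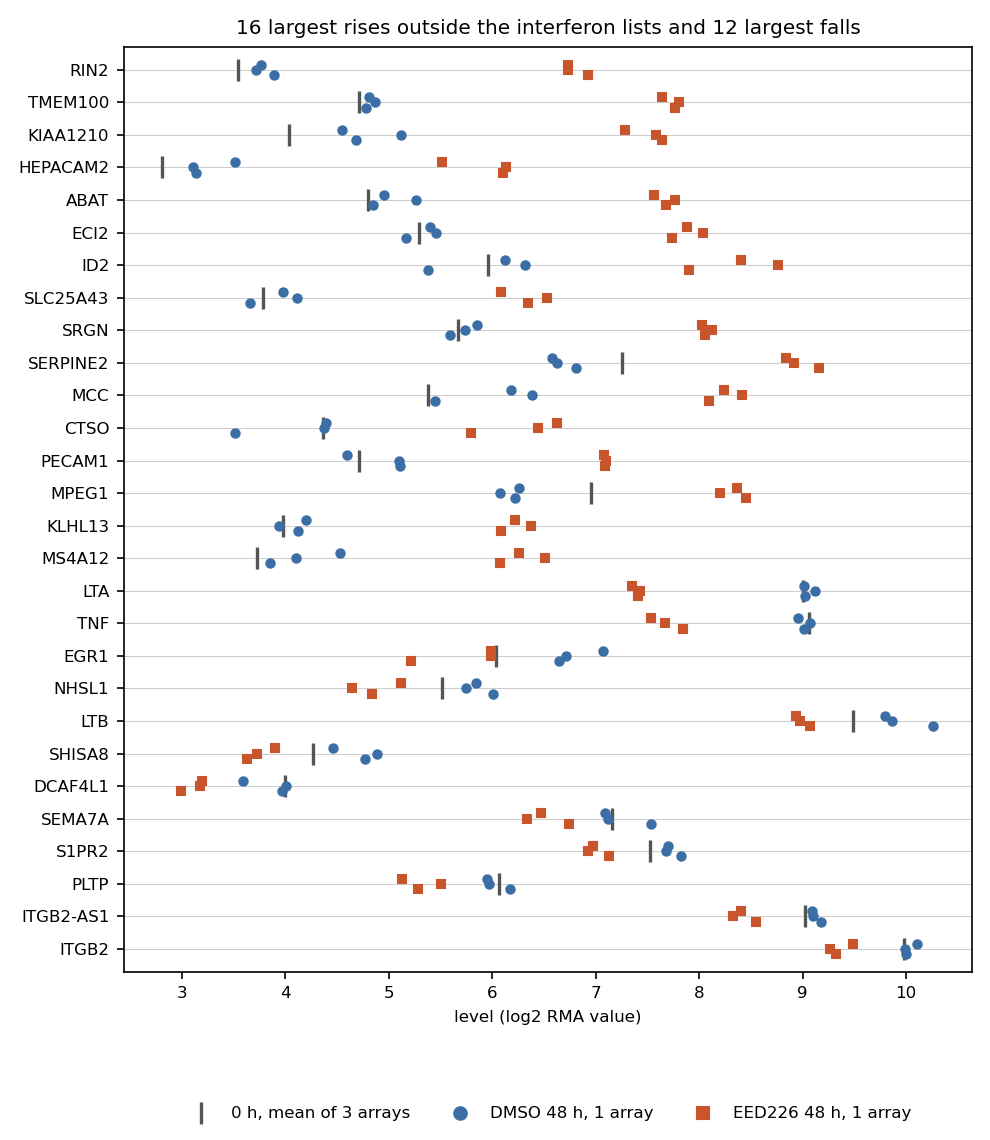
Level (log2 RMA value) of the 16 largest rises outside the interferon lists and the 12 largest falls, with 1 symbol per array at 48 h and a grey bar for the mean of the 3 arrays at 0 h. The EED226 and DMSO symbols do not overlap in any row, as the naming rule requires, and rises are wider than falls.

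Median rises at 48 h were intermediate between those of the neighbouring times, each of which has its own DMSO arrays. Of the 165 genes higher at 24 h, 161 (97.6%) were among the 1337 higher at 48 h, of which they are 12%. Of those 1337, 1240 (92.7%) were higher at 72 h, or 53.4% of the 2321 higher then, and none was lower at 72 h. Of the 529 lower genes 447 (84.5%) were lower at 72 h, which is 20.2% of 2215. The 36 interferon-pathway genes chosen as at least 2-fold higher at 48 h had medians of 0.36, 1.55 and 2.61 at 24, 48 and 72 h, and 2 of them had passed at 24 h. The other 221 had 0.64, 1.26 and 1.69, and 77 had passed at 24 h. Of all 19775 genes, 172 passed at 24 h, and both of these groups were chosen by their 48 h values.

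The change between times was tested directly as a difference of differences. From 24 h to 48 h it passed for 114 genes (0.576%), 107 upwards, of which 36 are interferon-pathway genes, and 7 downwards. Both steps use the 48 h arrays. From 48 h to 72 h it passed for 101 genes (0.511%), 93 upwards, 25 of them interferon-pathway genes, and 8 downwards. IFIH1 differed by 0.36, 2.73 and 5.01 at the 3 times, a gain of 2.37 by 48 h (adjusted p = 2.2e-06) and of 2.27 after it (adjusted p = 2.1e-06). IFIT1 had 0.56, 2.09 and 2.66, with a gain of 1.54 by 48 h (adjusted p = 4.7e-05) and of 0.57 after it, which did not pass (adjusted p = 0.30). ECI2 was earlier, at 1.58, 2.54 and 2.73, and SERPINE2, at 1.58, 2.30 and 2.43, passed in neither step. LTA went from −0.44 to −1.66 (−1.21 between, adjusted p = 0.016) and to −2.45, and TNF from −0.37 to −1.33 (−0.96, adjusted p = 0.033) and to −2.02. The first step passed for 71 and 68 genes without DMSO 48 h replicates 1 and 3, and for 65 and 71 without EED226 48 h replicates 2 and 3. It passed for 74 without DMSO 24 h replicate 1 or 3 or EED226 24 h replicate 1, and for 64 without EED226 24 h replicate 2. The second step passed for 58, 64 and 55 genes without DMSO 48 h replicate 1, DMSO 72 h replicate 1 and EED226 72 h replicate 3.

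**Figure D5:**
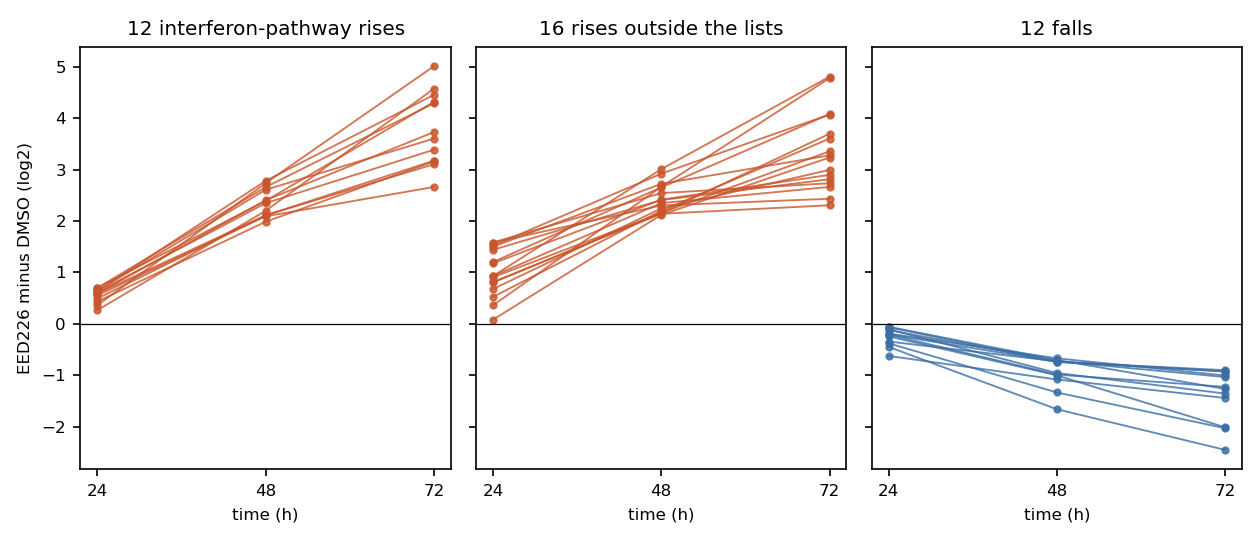
Difference between EED226 and DMSO (log2) at 24, 48 and 72 h for the 12 largest interferon-pathway rises, the 16 largest rises outside those lists and the 12 largest falls, 1 line per gene. Genes were chosen at 48 h, and the interferon lines lie between 0.27 and 0.70 at 24 h.

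Some strong rises lay side by side in the genome. Among tested genes in RefSeq order, 42 of the 257 genes at least 2-fold higher (16.3%) had such a gene as a direct neighbour, in 23 pairs, against 2.54% of all placed genes. Of all 1337 higher genes 350 (26.2%) had a higher neighbour, against 12.7% of all placed genes. Several are known interferon clusters: IFIT2, IFIT3, IFIT1 and IFIT5 on chromosome 10 (2.61, 1.87, 2.09 and 1.67), IFI44L and IFI44 on chromosome 1 (2.11 and 1.36), and CMPK2 and RSAD2 on chromosome 2 (1.18 and 2.78). Others paired genes of different kinds. SAMD9L, an effector, adjoins HEPACAM2 on chromosome 7 (1.44 and 2.66), and TDO2, a tryptophan oxygenase, adjoins CTSO on chromosome 4 (1.16 and 2.20). KIAA1210 and SLC25A43 adjoin each other on chromosome X (2.72 and 2.41). Of 528 lower genes placed in that order, 59 (11.2%) had a lower neighbour, in 32 pairs, against 5.23% of all placed genes.

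CG dinucleotides in the promoter differed in median between the groups, with wide overlap. The median number in 300 bases was 8.5 for the interferon-pathway genes at least 2-fold higher, 27 for the other genes at least 2-fold higher, 26 for smaller rises, 28 for lower genes and 22 over all genes. The quartiles were 4 and 18.8 in the first of these groups and 11 and 39 in the second. Low numbers were a trait of the interferon lists as a whole, with a median of 11 over all measured members and 15 for those that did not pass. RSAD2 was an exception with 45, and outside the lists SERPINE2 had 8 and MS4A12 had 2. E2F sites, searched as TTTGGCGC and TTTCCCGC on either strand, were in 4 of 30 promoters (13.3%) of interferon-pathway genes at least 2-fold higher, in 5.76% of lower promoters, in 2.76% of the other genes at least 2-fold higher and in 2.99% of all. The 120 bases before the start are shown for 2 strong rises outside the interferon lists and for IFI44L, with CG in capitals. In 300 bases SLC25A43 holds 27 and ECI2 28, near the median of their group, while IFI44L holds 0.
SLC25A43 (chrX:119399216-119399335, + strand): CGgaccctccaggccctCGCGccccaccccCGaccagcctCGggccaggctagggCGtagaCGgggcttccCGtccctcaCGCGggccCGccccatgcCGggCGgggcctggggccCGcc
ECI2 (chr6:4135576-4135695, − strand): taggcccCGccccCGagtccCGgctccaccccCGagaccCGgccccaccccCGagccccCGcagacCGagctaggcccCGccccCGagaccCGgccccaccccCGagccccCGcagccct
IFI44L (chr1:78620328-78620447, + strand): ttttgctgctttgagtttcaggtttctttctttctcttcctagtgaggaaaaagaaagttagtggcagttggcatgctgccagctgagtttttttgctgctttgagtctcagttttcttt
The stretch of SLC25A43 holds 14 CG dinucleotides and that of ECI2 13, while that of IFI44L holds 0.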

How the data were processed

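Total RNA was prepared with TRIZOL, converted with a 3' IVT Express kit and hybridised to Affymetrix arrays, as the labels' protocols state. Values are on the log2 scale as deposited: the authors summarised each probe set by RMA (its version is not stated), per the submitters' processing notes. Raw array intensities were not read, and the number of arrays limits the precision. Of 54675 probe sets, 62 are controls, 41091 had 1 gene symbol in the platform annotation, 1801 several and 11721 none. The probe set with the highest mean over all 33 arrays stood for each of 19775 genes, 10523 of which had several.

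limma 3.58.1 (R 4.3.3) fitted 11 group means over 33 arrays (lmFit, eBayes, 22 residual degrees of freedom), with Benjamini-Hochberg adjustment over all genes and a threshold of 0.05. All p-values are two-sided. The spread is shared by all groups. The titles number the replicates, which does not by itself show that arrays were paired. Same-numbered EED226 and DMSO arrays at 48 h deviated together (r = 0.16, 0.17 and 0.15). No pair of different numbers had r above 0, which follows in part from taking deviations around a mean of 3 arrays. The main fit left this numbering out. Beside its 1866 passing genes at 48 h, the replicate block gave 2311 (1596 higher, 715 lower). The block within time gave 2202 (1630 higher, 572 lower). The scripts were tested on simulated data.

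The members and lists were chosen with earlier results of these data known. Genes were named by rule among those that passed without overlap of the groups: the 12 largest rises in the sensor, signalling and effector lists, the 16 largest rises outside them and the 12 largest falls. The rule also takes the 2 members of each list with the smallest p, EED, EZH2, EZH1, SUZ12, and the 4 largest changes between times in each direction. Alternatives were other scalings, probe set choices, eBayes settings, array weights, an ACTB covariate, the replicate block and leaving out single arrays; centring arrays on their median over genes was added after seeing the data.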

Additional observations from a re-analysis of the deposited data

Results flagged for a closer look

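The difference between EED226 and DMSO was compared between times with limma, and a gene was listed where the difference of differences passed. It passed for 114 genes from 24 h to 48 h and for 101 from 48 h to 72 h. The 4 largest gains by 48 h were those of IFIH1 (2.37), HEPACAM2 (2.30), RSAD2 (2.14) and RIN2 (2.08). The 4 largest changes downwards were those of LTA (−1.21), TNF (−0.96), MEOX2 (−0.63) and SAPCD2 (−0.60), with MEOX2 at a dim level. After 48 h the largest gains were those of RNF213 (2.75), H2AC6 (2.71), IFI27 (2.37) and GIMAP2 (2.35). For RNF213, 3 of 7 other probe sets were opposite at 48 h. The largest changes downwards after 48 h were those of ZNF826P (−0.97), SYNGR1 (−0.57), FAM167A (−0.54) and DLEU1 (−0.49).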

How the results depend on the processing

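Over the 19 alternatives the number of higher genes stayed within 1.5 times of 1337 (1001 to 1943), while the number of lower genes did not stay near 529. Lower genes numbered 311 with array medians centred, 1180 with array medians over genes centred, 892 after quantile normalization again, 1278 with array weights, and 231 to 737 without single arrays. All genes that passed numbered 3221 with array weights and 1232 to 2338 without single arrays. At least 2-fold lower were 6 genes with medians over genes centred, 5 after quantile normalization and 2 to 5 without single arrays. At least 2-fold higher were 130 where all probe sets of each gene were averaged. For the change from 24 h to 48 h, 199 genes passed with the replicate block within time, 277 with array weights and 64 to 158 without single arrays. For the change from 48 h to 72 h, 166 passed with the replicate block, 170 with the block within time, 162 after quantile normalization, 168 with trended robust eBayes, 273 with array weights and 55 to 147 without single arrays. PECAM1 gave −0.297 with the brightest probe set outside EED226 arrays, and EZH1 −0.00998 with the mean of its probe sets. SUZ12, which did not pass, gave −0.0496 with medians over genes centred, −0.0165 after quantile normalization, −0.061 with the mean of its probe sets, and −0.0297 to 0.0662 without single arrays. The cause of these changes was not tested. Dim probe sets limit what could be seen, and the arrays give no counts.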
